A study of Mus musculus with 2 samples.

Results

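The cytosolic ribosomal protein genes are the genes whose proteins, with the ribosomal RNAs, make up the large and the small subunit of the ribosome. They were taken here by gene symbol alone: Rpl or Rps followed by a number, with or without one further letter and a final l, together with Rplp0, Rplp1, Rplp2 and Rpsa, and without symbols that carry -ps. The rule found 84 of 55450 genes, 52 named for the large subunit and 32 for the small subunit. Of the 84 genes, 81 are annotated as protein-coding, and Rps4l, Rpl6l and Rpl32l are annotated as processed pseudogenes. The rule used no measured value. It leaves out a few ribosomal proteins with other symbols, among them Rps3a1 and Fau, which are given separately.

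The donors were adult male mice of the inbred C57BL/6J strain, and the tissue was brain. The anesthesia group was 3 mice given 100 mg/kg sodium pentobarbital, a barbiturate, and the awake group was 3 mice given normal saline. All brains were digested with collagenase IV and DNase I, spun through Percoll to remove myelin, and sorted for CD11b with low CD45, a gate that favours microglia over blood-derived myeloid cells. Each group has 1 library, made with the 10x Genomics 3′ v3 kit, in which a unique molecular identifier (UMI) marks each captured RNA molecule near its 3′ end. The sources used here do not say whether the mice of 1 group were pooled, or how long the drug acted. With 1 library per group, the treatment, the handling and the library cannot be told apart, no difference has a replicate check and no p-value is given. The intervals cover counting error only.

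The anesthesia library held 9412 barcodes and 61139016 UMIs, and the awake library held 8600 barcodes and 53262885 UMIs. After filtering, 8944 anesthesia and 8223 awake cells were kept. In all, 14 barcodes occurred in both libraries, 11 of them among kept cells, and 0 had identical counts. Microglia-like clusters showed at least 7 of 10 microglial markers in at least 25% of their cells and had at most 1 marker of another class among their leading genes. They held 8243 anesthesia and 7466 awake cells with 56153036 and 48322123 UMIs. Microglial markers alone did not set them apart, since every cluster showed 9 or 10 of the 10. Clusters 6 and 8, with 441 anesthesia and 519 awake cells, stayed unnamed and outside the microglia-like sums. Cluster 6 had 2 astrocyte markers among its leading genes, and cluster 8 had a median UMI count as low as 0.265 of that of its library. The larger microglia-like clusters were almost all of 1 library: cluster 1 held 3449 anesthesia and 74 awake cells, and cluster 0 held 160 anesthesia and 3373 awake cells. The median mitochondrial share was 2.21% in kept anesthesia cells and 1.40% in kept awake cells. Doublets were not removed, because the caller marked 0 of 8944 anesthesia and 0 of 8223 awake cells. A call of 0 does not show that doublets were absent, and some may remain among the kept cells.

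Each ribosome holds about equal numbers of most of its proteins, and cells therefore make them together. In vertebrates the mRNAs of ribosomal proteins start with a C followed by an unbroken run of pyrimidines, the 5′ terminal oligopyrimidine (TOP) motif, through which the mTORC1 kinase and the LARP1 protein control their translation. Control of this kind acts on translation and need not move the amount of mRNA, which is what UMIs count.

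The first transcribed bases are shown for genes that mark the ends of the range described below. The windows are from RefSeq on GRCm38.p6, run 5′ to 3′ on the transcribed strand, and hold 10 bases before and 20 bases from the annotated start. Capitals mark the motif searched, a C at the annotated start followed by at least 4 bases that are all C or T, on the transcribed strand only. Rps21, Rpl38, Rps27 and Rps10 are higher in the anesthesia library and hold a match, and Rps6 is lower, within 1.5-fold, and holds one. Apart from Rps28, higher genes without a match are not shown. For Rps21 the window of 1 of its 2 annotated starts is shown, and the other start has no match.
Rps21, chr2:180257369-180257398, plus strand: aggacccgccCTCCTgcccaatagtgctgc
Rpl38, chr11:114668570-114668599, plus strand: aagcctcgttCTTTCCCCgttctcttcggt
Rps27, chr3:90213629-90213658, minus strand: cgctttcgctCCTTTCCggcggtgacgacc
Rps10, chr17:27635225-27635254, minus strand: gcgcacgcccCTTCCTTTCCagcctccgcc
Rps6, chr4:86857348-86857377, minus strand: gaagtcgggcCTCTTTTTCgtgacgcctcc
Rps28 and Rpl10 have the highest and the lowest ratio among the protein-coding genes measured here, and neither window holds a match at the annotated start.
Rps28, chr17:33824543-33824572, minus strand: cgcgtgcggtctcgcgagagcgaaagtgag
Rpl10, chrX:74270806-74270835, plus strand: tacagtggaagataggccgcctatataagg

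The promoter table held 62 of the 84 genes. A gene was counted if any of its annotated starts had a match. This was so for 14 of these 62 genes (22.6%), 8 of 39 for the large and 6 of 23 for the small subunit, against 813 of 27025 genes in the whole table (3.01%). A gene without a match lacks these letters at this annotated base only, and an annotated start can lie some bases away from the used one. At least 1.5-fold higher were 4 of the 13 measured genes with a match and 5 of the 46 without one, against 13.2% of all measured genes. The ratios of genes with and without a match overlapped. Log2 ratios of anesthesia over awake ran from -0.39 to 1.07 with a median of 0.29 in the 13 measured genes with a match, and from -0.59 to 1.16 with a median of 0.00 in the 46 measured genes of the table without one.

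In microglia-like cells the 84 genes took 7.78% of all UMIs in the anesthesia library (95% binomial interval, Clopper-Pearson, 7.77 to 7.79) and 6.91% in the awake library (6.90 to 6.92), a log2 ratio of 0.17. Large-subunit genes took 4.16% in the anesthesia and 3.79% in the awake library (log2 0.13). Small-subunit genes took 3.62% in the anesthesia and 3.12% in the awake library (log2 0.22). Levels below are CPM, a gene's UMIs scaled to a fixed library total, summed over the microglia-like cells of a library. Because a molecule is counted once near its 3′ end whatever its length, CPM is not divided by transcript length.

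The level varied widely among genes whose proteins are needed in like numbers. Rps29, a zinc-binding protein of the small-subunit head, had the most UMIs over both libraries, 281064 in the anesthesia and 117711 in the awake library, or 5005 and 2436 CPM. Rplp1, an acidic protein of the stalk that recruits translation factors, came next with 2958 CPM in the anesthesia and 3090 CPM in the awake library, where its level was above that of Rps29. Rps12 (1865 and 1746 CPM), Rps24 (1757 and 1726 CPM) and Rps9 (1570 and 1746 CPM) followed by UMIs summed over both libraries, with values for the anesthesia and the awake library. The order differs within a library, since Rps21 (2120 CPM) and Rps27 (2015 CPM) were above Rps12 in the anesthesia library. At the other end, Rpl39l, a copy of Rpl39 known for its expression in the testis, had 219 UMIs in the anesthesia and 141 in the awake library.

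Of the 84 genes, 3 were not measured, meaning that they had under 200 UMIs over both libraries: Rpl32l with 37 UMIs in the anesthesia and 29 in the awake library, Rpl3l with 3 and 0, and Rpl10l with 0 and 0. Rpl3l is a copy of Rpl3 known from striated muscle, and Rpl10l a copy of Rpl10 known from the testis. A count of 0 allows up to 0.0534 CPM in the anesthesia and 0.0621 CPM in the awake library (3 UMIs of the total). The other 81 genes, 49 of the large and 32 of the small subunit, are the base of what follows.

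**Figure D1:**
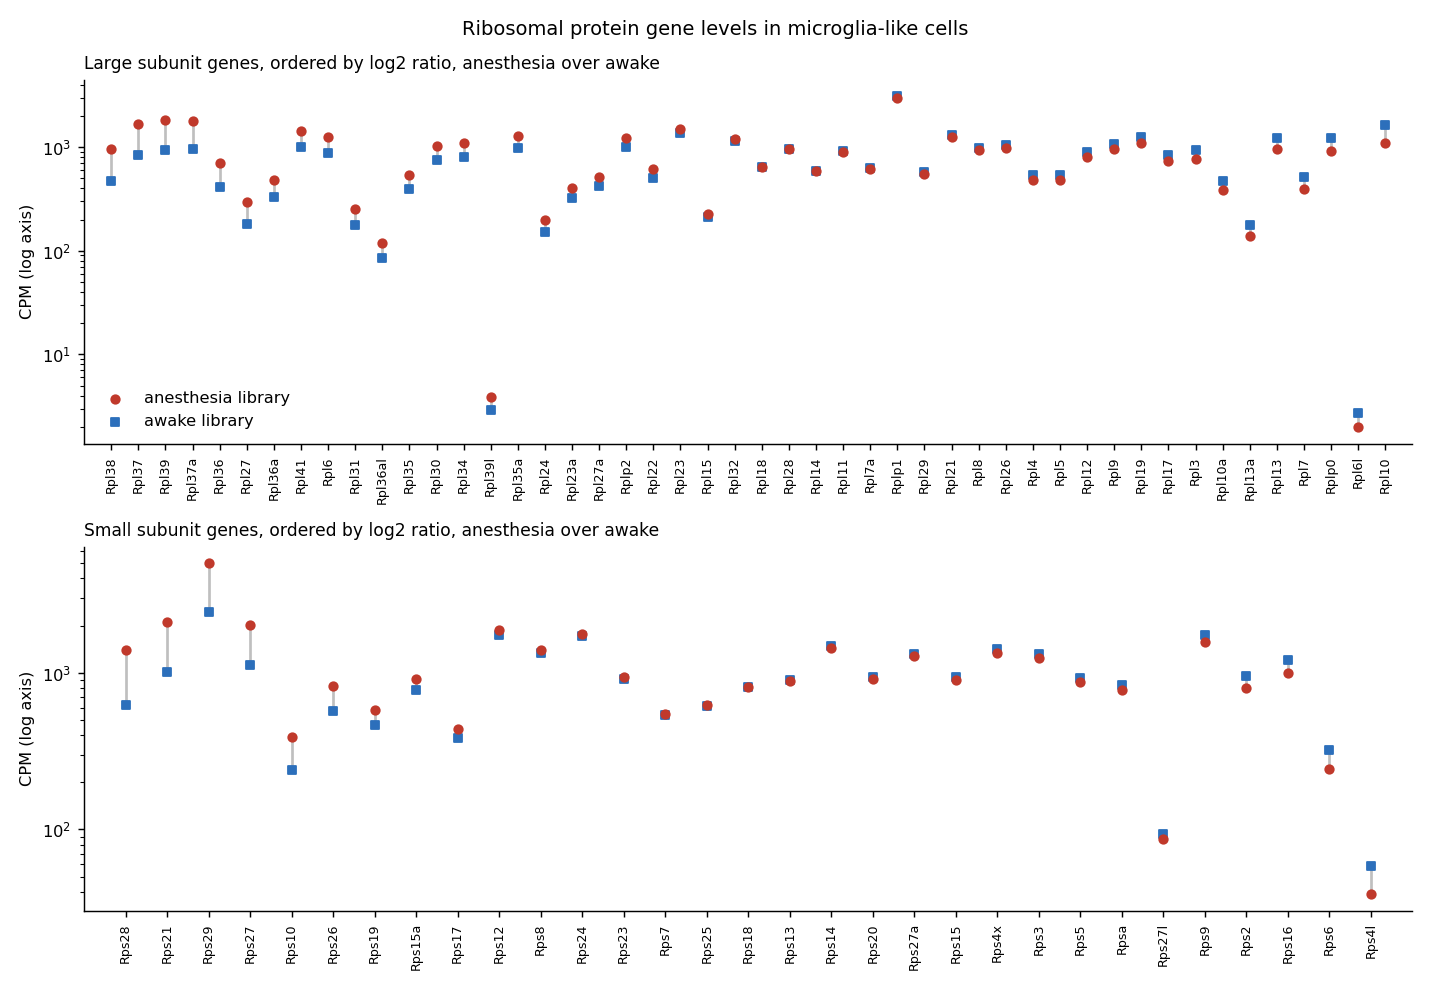
Level of measured ribosomal protein genes in microglia-like cells, in CPM on a logarithmic axis, with large-subunit genes above and small-subunit genes below, ordered by log2 ratio from left to right. Circles stand for the anesthesia and squares for the awake library. The symbols are widest apart at the left of each panel, as for Rps29 with 5005 and 2436 CPM, and near each other over most of its width.

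The ribosomal protein genes went both ways, with a median near 0. The median log2 ratio of anesthesia over awake was -0.01 over 81 genes (-0.06 to 0.11, order-statistic 95% interval), with a median of -0.02 over all 11389 measured genes. The ratio was above 0 for 39 genes and below 0 for 42, and the counting interval lay wholly above 0 for 38 and wholly below 0 for 39. Large-subunit genes (median -0.01, interval -0.08 to 0.35) and small-subunit genes (median -0.01, interval -0.08 to 0.10) had the same median to 2 decimals.

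The genes spread unevenly about that median. In all, 11 of 81 genes (13.6%) were at least 1.5-fold higher in the anesthesia library, against 13.2% of all measured genes, so the share of higher genes was near the background. At least 1.5-fold lower were 2 of 81 genes (2.47%), against 12.0% of all measured genes. By subunit, 6 large-subunit genes were higher and 1 lower, and 5 small-subunit genes were higher and 1 lower. The 11 genes together took 1.82% of UMIs in the anesthesia and 0.923% in the awake library, a log2 ratio of 0.98. The other 73 genes together took 5.96% in the anesthesia and 5.99% in the awake library, a log2 ratio of -0.01. The 11 genes were picked by this same ratio, so these sums only locate the difference in total share.

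Of the small subunit, Rps28, a protein of the head near the mRNA exit, had the highest ratio: 1389 CPM in the anesthesia and 622 CPM in the awake library, from 78013 and 30063 UMIs (log2 1.16, 1.14 to 1.18). Rps21 had 2120 CPM in the anesthesia and 1008 CPM in the awake library (log2 1.07, 1.06 to 1.09). The log2 ratio of Rps29 was 1.04 (1.03 to 1.05). These 3 genes thus had similar ratios at unlike levels, with 1389, 2120 and 5005 CPM in the anesthesia library. Rps27, a zinc-finger protein, had 2015 CPM in the anesthesia and 1123 CPM in the awake library (log2 0.84, 0.83 to 0.86). Rps10, whose human gene is one of those mutated in Diamond-Blackfan anemia, had 391 CPM in the anesthesia and 241 CPM in the awake library (log2 0.70, 0.67 to 0.73). Exons of the readthrough gene RPS10-NUDT3 overlap Rps10 on the same strand, and shared reads may have been split or dropped.

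Of the large subunit, Rpl38, which mouse embryos need to translate a subset of Hox mRNAs, had 964 CPM in the anesthesia and 467 CPM in the awake library (log2 1.05, 1.03 to 1.07). Rpl37 and Rpl37a are small zinc-binding proteins with similar names and separate places in the subunit. Rpl37 had 1680 CPM in the anesthesia and 840 CPM in the awake library (log2 interval 0.98 to 1.02), and Rpl37a had 1780 CPM in the anesthesia and 963 CPM in the awake library (log2 0.89, 0.87 to 0.90). Rpl39 lines the tunnel through which the new peptide leaves the ribosome. It had 1833 CPM in the anesthesia and 939 CPM in the awake library (log2 0.97, 0.95 to 0.98). Rpl36 had 701 CPM in the anesthesia and 410 CPM in the awake library (log2 0.77, 0.75 to 0.80). Rpl27, of the higher genes the nearest to the 1.5-fold threshold, had 294 CPM in the anesthesia and 182 CPM in the awake library (log2 0.69, 0.65 to 0.73). Just short of the threshold, Rpl36a had 482 and 332 CPM in the anesthesia and the awake library (log2 0.54, 0.51 to 0.57). Rps26, also short of it, had 818 and 567 CPM (log2 0.53, 0.51 to 0.55).

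The 2 lower genes were Rps4l and Rpl10. Rpl10 joins the large subunit late in its assembly and reaches toward the catalytic centre. It had 1087 CPM in the anesthesia and 1636 CPM in the awake library (log2 -0.59, -0.60 to -0.57). Rps4l, a transcribed processed pseudogene, had 38.7 CPM in the anesthesia and 58.5 CPM in the awake library (log2 -0.60, -0.68 to -0.51). Both lie so near the threshold that neither passes it once ratios are centred on the median gene. Rpl7 (391 CPM in the anesthesia and 510 CPM in the awake library, log2 -0.38, -0.41 to -0.36) and Rpl13 (950 and 1213 CPM, log2 -0.35, -0.37 to -0.34) were among the 5 lowest large-subunit genes and inside the threshold. Among the 5 lowest small-subunit genes, Rps16, whose tail reaches the tRNA in the P site, had 990 CPM in the anesthesia and 1199 CPM in the awake library (log2 -0.28, -0.29 to -0.26). Rps2 had 800 CPM in the anesthesia and 950 CPM in the awake library (log2 -0.25, -0.27 to -0.23).

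The 3 stalk proteins had unlike ratios. Rplp0, the base of the stalk, had 916 CPM in the anesthesia and 1213 CPM in the awake library (log2 -0.41, -0.42 to -0.39). Rplp1 differed little (log2 -0.06, -0.07 to -0.05). Rplp2, its partner, had 1223 CPM in the anesthesia and 998 CPM in the awake library (log2 0.29, 0.28 to 0.31). Rpl5 and Rpl11 carry the 5S ribosomal RNA into the large subunit and bind the p53 regulator Mdm2. Their log2 ratios were -0.16 (-0.18 to -0.13) and -0.03 (-0.05 to -0.01). Rps6, the small-subunit protein phosphorylated by the S6 kinases downstream of mTORC1, had 243 CPM in the anesthesia and 319 CPM in the awake library (log2 -0.39, -0.42 to -0.36). All of these genes were inside the 1.5-fold threshold.

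The ratio followed the length of the coding sequence. Among the 79 measured protein-coding members, Spearman's rho between log2 ratio and coding length was -0.75, and it was -0.78 over 48 large-subunit and -0.64 over 31 small-subunit genes. With the length of the longest principal (APPRIS) transcript, the measure set as the main one, rho was -0.39 over 81 genes. It was -0.00 with GC content and -0.18 with the awake level over the same 81 genes. Coding length was examined after the values were seen. These are descriptions across genes of the same pair of libraries, and genes are not independent replicates. Over the other 9966 measured protein-coding genes of all lengths, rho was positive, 0.26 for coding length and 0.35 for transcript length. Most of these genes were longer than most ribosomal protein genes, so this rho does not describe other genes of like length.

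By class of coding length, the 11 measured ribosomal protein genes under 300 bases had a median log2 ratio of 0.97, and 8 of the 11 were at least 1.5-fold higher (72.7%). Of 224 other protein-coding genes of that length, 24 were higher (10.7%), and their median was -0.16. At 300 to 399 bases the ribosomal protein median was 0.39 over 17 genes, against -0.21 over 310 others. Of the 17 genes, 1 was at least 1.5-fold higher (5.88%, against 9.03% of the others). At 400 to 499 bases the ribosomal protein median was -0.01 over 22 genes, against -0.24 over 382 others. There 2 genes were higher (9.09%, against 6.81%). At 500 to 599 bases the median was -0.16 over 8 genes, against -0.23 over 449 others. At 600 bases and over it was -0.15 over 21, against -0.01 over 8601 others. No ribosomal protein gene was higher in these 2 classes. The class of 600 bases and over held most of the other genes. Below it, their medians went from -0.16 under 300 bases to -0.24 at 400 to 499 bases and -0.23 at 500 to 599 bases. That was the direction of the ribosomal protein medians, over a much smaller range. The 11 higher genes had coding lengths from 153 to 495 bases with a median of 252, and the other 68 genes from 75 to 1257 bases with a median of 470. The length ranges overlap, since 39 of those 68 genes were no longer than 495 bases.

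**Figure D2:**
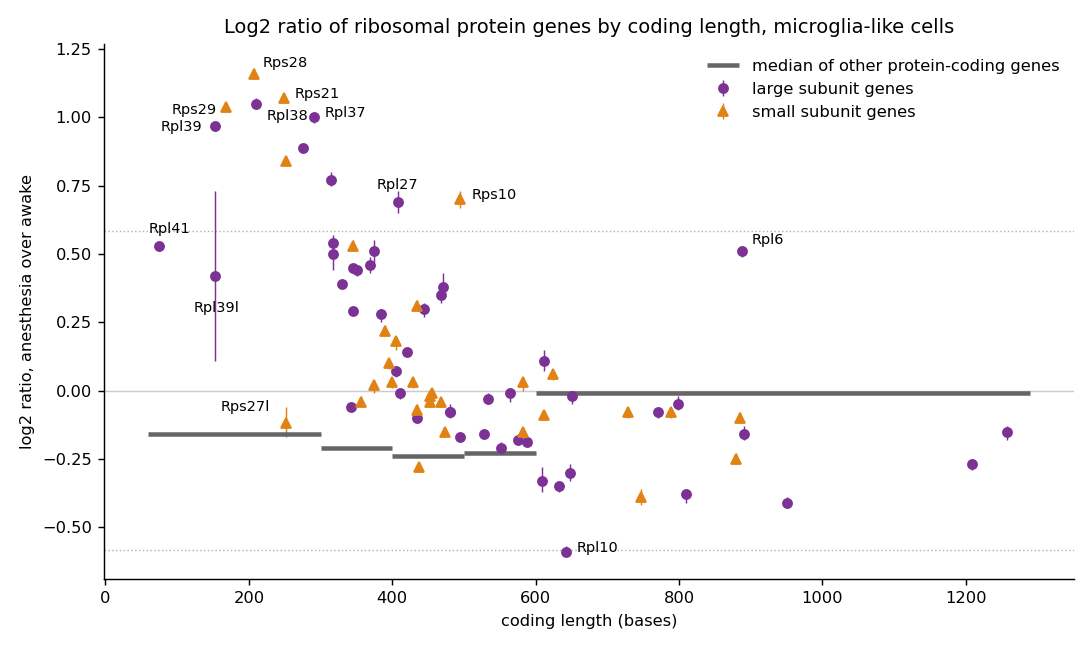
Log2 ratio of anesthesia over awake against coding length in bases for the measured protein-coding ribosomal protein genes, in microglia-like cells. Circles are large-subunit and triangles small-subunit genes with 95% counting intervals, dotted lines mark 1.5-fold, and grey bars are medians of the other protein-coding genes. The shortest genes lie highest (median 0.97 under 300 bases), and Rpl41, Rpl39l and Rps27l are short genes below the upper line.

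The exceptions were 3 genes under 300 bases inside the threshold. Rpl41, one of the shortest known eukaryotic proteins, has a coding length of 75 bases and had 1440 CPM in the anesthesia and 998 CPM in the awake library (log2 0.53, 0.51 to 0.54). Rpl39l has the same coding length as Rpl39, 153 bases, and a log2 ratio of 0.42 (0.11 to 0.73). Rps27l, a copy of Rps27 that p53 is known to induce, has the same coding length as Rps27, 252 bases. It had 86.6 CPM in the anesthesia and 93.8 CPM in the awake library (log2 -0.12, -0.17 to -0.06), on the other side of 0 from Rps27. Among longer genes, Rpl6, with a coding length of 888 bases, had 1253 CPM in the anesthesia and 879 CPM in the awake library (log2 0.51, 0.49 to 0.53).

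Some pairs of symbols differ by 1 letter and name unlike proteins. Rpl27, Rpl35 and Rpl23 had log2 ratios of 0.69, 0.46 and 0.14, and their namesakes Rpl27a, Rpl35a and Rpl23a had 0.30, 0.39 and 0.35. Rpl7 and Rpl7a had -0.38 and -0.05, Rpl10 and Rpl10a -0.59 and -0.30, and Rpl13 and Rpl13a -0.35 and -0.33. Rps15 and Rps15a had -0.07 and 0.22. Rps27 had 0.84 and Rps27a, which is made as a fusion with ubiquitin, had -0.04. The measured genes not named here had log2 ratios between that of Rpl31, 0.51, and that of Rpl17, -0.21.

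Copies of ribosomal protein genes can share reads, and the share lost or split is not known for these counts. Rpl36a and Rpl36al had near-equal log2 ratios, 0.54 and 0.50 (0.44 to 0.56 for Rpl36al), at 482 and 119 CPM in the anesthesia library. Rps4x, the X-linked gene, had a log2 ratio of -0.08 (-0.10 to -0.07), against -0.60 for Rps4l. Rpl6 had 0.51, against -0.45 (-0.83 to -0.08) for Rpl6l, which had 112 UMIs in the anesthesia and 132 in the awake library. The 300 symbols with -ps held 15614 UMIs in the anesthesia and 13409 in the awake library, 0.357% and 0.402% of the UMIs of the 84 genes, with a log2 ratio of 0.00. Rpl3 and Rpl32, whose copies were not measured, had log2 ratios of -0.27 and 0.07. At least 1 -ps symbol exists for 60 of the 84 genes. Besides Rps10, exons of another gene overlapped Rpl24, Rpl36al, Rpl13a and Rpl19 on the same strand.

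Ribosomal proteins outside the symbol rule, picked by name after the values of the other genes were seen, fell on both sides. Fau, a ubiquitin-like protein fused to a small-subunit protein, had 2939 CPM in the anesthesia and 2494 CPM in the awake library (log2 0.24, 0.23 to 0.25). Rps3a1 had 1232 CPM in the anesthesia and 1386 CPM in the awake library (log2 -0.17, -0.19 to -0.15). Rps27rt, a retrotransposed copy of Rps27, had 35.7 CPM in the anesthesia and 16.9 CPM in the awake library (log2 1.08, 0.96 to 1.20). It headed a list of 4 genes with related names, in which Rpl22l1 had a log2 ratio of 0.03, Rps19bp1 -0.20 and Rpl7l1 -0.37.

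The lists of other translation genes had medians near that of all genes, and their counts stand against 13.2% higher and 12.0% lower over all measured genes. Of 19 further translation genes known or reported as TOP mRNAs, 1 was higher and 0 were lower, with a median of -0.09. The poly(A)-binding protein Pabpc1 had a log2 ratio of 0.53, the elongation factor subunit Eef1g -0.48 and the growth-related protein Tpt1 -0.42. Of 29 initiation factors, 1 was higher (Eif3j1, log2 0.69) and 1 lower (Eif2b5, log2 -0.67), with a median of -0.08. Eif1, which helps select the start codon, had -0.43, and the eIF2 subunit Eif2s2 had 0.43. Of 38 genes of ribosome biogenesis, 2 were higher and 5 lower, with a median of -0.01. The box C/D protein Nop56 was among the higher ones (log2 0.79), and the lower ones included Nop16 (log2 -1.28), the RNA polymerase I subunit Polr1b (log2 -1.09) and the small-subunit assembly factor Bysl (log2 -0.94).

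Among 22 regulators of ribosomal protein synthesis, 3 were higher and 2 lower, with a median of -0.03. The higher ones were Ddit4, an inhibitor of mTORC1 (log2 1.13), Pdcd4, an inhibitor of the helicase eIF4A (log2 0.97), and Myc, a driver of ribosome synthesis (log2 0.83). The lower ones were Eif4ebp1, the mTORC1 target that holds eIF4E (log2 -0.90), and Eef2k, the kinase of elongation factor 2 (log2 -0.75). UMI counts measure mRNA, and say nothing of the amount, the phosphorylation or the activity of these proteins.

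Most markers of RNA quality and free RNA were higher in the anesthesia library, by unlike amounts. That list holds 15 genes, of which 14 were measured. Of these, 8 were at least 1.5-fold higher in the anesthesia library, none was 1.5-fold lower, and the median log2 ratio was 0.85. The highest was the hemoglobin gene Hbb-bt (log2 3.13), from red blood cells, then Gm42418, which overlaps ribosomal RNA (log2 1.33). A further hemoglobin gene, Hbb-bs, had a log2 ratio of 1.27. The mitochondrial mRNA mt-Co2 had 0.99, from 882 UMIs in the anesthesia and 382 in the awake library. Of the listed mitochondrial mRNAs with the most UMIs, mt-Co1 had 0.91, mt-Nd1 0.42, mt-Cytb 0.21 and mt-Nd4 -0.07. Malat1 had 0.33 and Neat1 -0.08. The part of these markers in the ribosomal protein result was not tested.

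The share of ribosomal protein UMIs went with the mitochondrial share within each library. From the lowest to the highest class of mitochondrial share (under 1%, 1 to 2%, 2 to 3%, and 3% and over), it was 6.50%, 7.25%, 8.07% and 8.42% in anesthesia cells and 5.61%, 7.10%, 7.81% and 8.21% in awake cells. In the 3 higher classes the log2 ratio of the summed 11 higher genes was 0.81, 0.84 and 0.84, and that of the other 73 genes -0.14, -0.13 and -0.14. In the lowest class the 11 genes took 1.46% of UMIs in anesthesia and 0.727% in awake cells, and the other 73 genes had a log2 ratio of 0.05. By depth, the 11 genes had log2 ratios of 1.02 in cells with 1000 to 2999 UMIs, 1.17 at 3000 to 5999, 0.94 at 6000 to 10000 and 0.92 over 10000 UMIs. The other 73 genes had log2 ratios of 0.00, 0.17, -0.05 and -0.06 in these classes, so they were above 0 at 3000 to 5999 UMIs, the class with the most cells (4771 anesthesia and 3493 awake). The 11 genes were picked by their ratio in these same cells. Their higher level in each class of depth and of mitochondrial share is therefore no separate check.

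The 11 genes were likewise higher in each microglia-like cluster, whose cells were also used to pick them. The unnamed clusters 6 and 8, not used to pick them, had log2 0.83 for the 11 genes and -0.10 for the other 73. These cells came from the same 2 libraries and showed 10 (cluster 6) and 9 (cluster 8) of the 10 microglial markers. Their values are therefore no separate check either. Clusters 5, 7 and 9 were the least one-sided between libraries. In cluster 5, with 242 anesthesia and 486 awake cells, the 11 genes took 1.52% of UMIs in anesthesia and 0.807% in awake cells (log2 0.92), and the other 73 genes had a log2 ratio of -0.06. In cluster 7, with 60 anesthesia and 241 awake cells, the log2 ratios were 1.25 for the 11 genes and 0.25 for the others. In cluster 9, with 131 anesthesia and 120 awake cells, they were 1.05 and 0.02. Over the other 5 clusters the log2 ratio of the 11 genes ran from 0.90 in cluster 1 to 1.27 in cluster 0, with as few as 9 awake cells in cluster 4.

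Per cell, the share was compared after thinning each microglia-like cell to 2000 UMIs, which left out 157 anesthesia and 120 awake cells. The median share was 7.55% in anesthesia cells (5th to 95th percentile 4.85 to 11.8) and 6.40% in awake cells (4.05 to 10.5). Without thinning the medians were 7.50% in anesthesia and 6.35% in awake cells. The ranges overlap over most of their width. The SD over cells was 2.13 percentage points in anesthesia and 2.04 in awake cells, where sampling 2000 UMIs at 1 common share gives 0.60 and 0.56. Large- and small-subunit UMIs went together across cells of a library (Pearson's r 0.83 in 8086 anesthesia and 0.85 in 7346 awake cells, a description over cells of 1 library each).

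**Figure D3:**
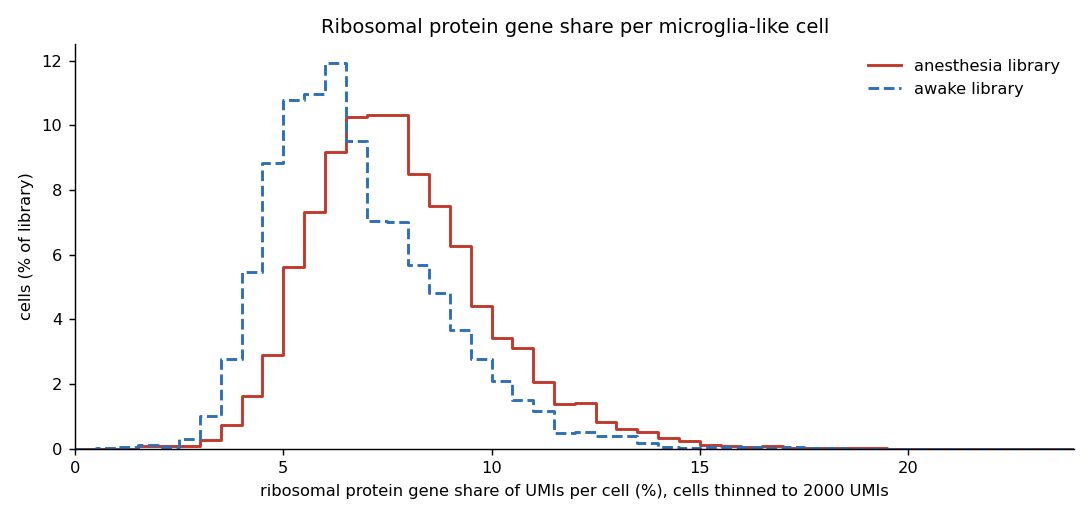
Ribosomal protein genes as percent of UMIs per microglia-like cell, thinned to 2000 UMIs, as the percent of cells of each library in each bin. The anesthesia cells (median 7.55%) lie to the right of the awake cells (median 6.40%) with wide overlap.

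The sort also held small numbers of other cells, and the ribosomal protein share differed among them. Endothelial-like cells (123 anesthesia and 114 awake) had a share of 8.29% in the anesthesia library (8.23 to 8.35) and 7.84% in the awake library (7.78 to 7.90). Border-associated macrophage-like cells (56 and 85) had 7.52% in the anesthesia and 6.24% in the awake library. Their median UMI count was 13146 in the anesthesia and 8107 in the awake library, against 5479 and 5980 in microglia-like cells. Without cells over 10000 UMIs their shares were 8.10% in the anesthesia and 7.61% in the awake library, a narrower gap. They were then above those of microglia-like cells, 7.94% and 6.91%, where over all cells they were below. Choroid plexus or ependymal-like cells (81 and 39) had 6.78% in the anesthesia and 5.60% in the awake library. In each library the endothelial-like cells had the highest and the choroid plexus or ependymal-like cells the lowest share of the 4 classes. The gap between libraries was in the same direction in all 4 classes.

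**Figure D4:**
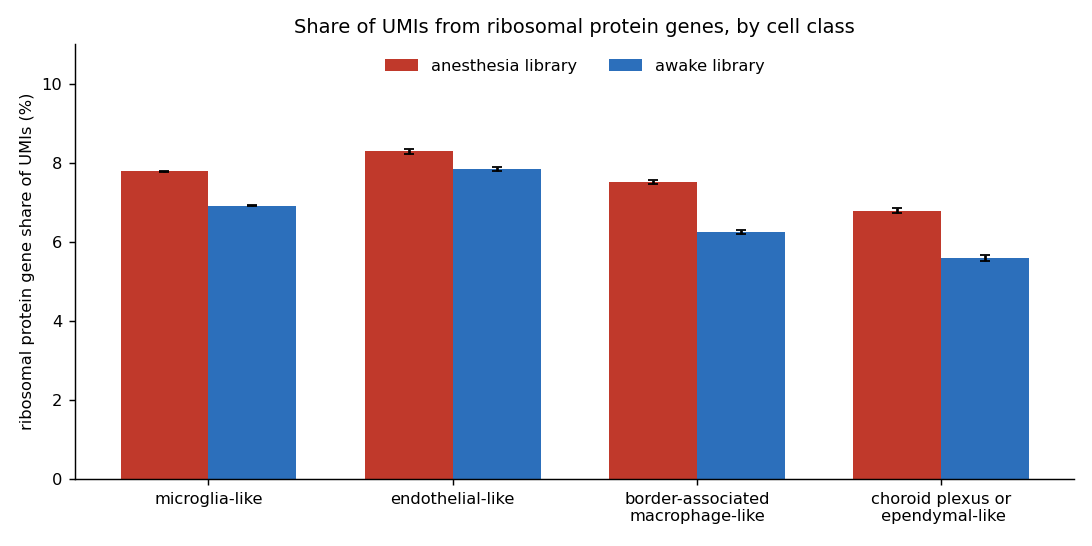
Ribosomal protein genes as percent of all UMIs in each cell class, anesthesia and awake library, with 95% binomial intervals that cover counting error only. The anesthesia value is higher in each class, with 8.29% and 7.84% in endothelial-like cells. Cells of any depth are included, and the gap in border-associated macrophage-like cells was narrower without cells over 10000 UMIs.

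Microglial RNA was present in the other classes, and more so in the anesthesia library. The summed CPM of the 10 microglial markers in endothelial-like cells was 43.1% of its level in microglia-like cells in the anesthesia library and 18.2% in the awake library. It was 85.9% and 49.7% in border-associated macrophage-like cells, which are themselves related to microglia, and 45.2% and 33.2% in choroid plexus or ependymal-like cells. The part of this RNA in the differences of these classes was not tested. The summed markers of each class itself were lower in the anesthesia library. They were 19238 CPM in the anesthesia and 34256 CPM in the awake library in endothelial-like cells, against 338 and 498 CPM in microglia-like cells. In border-associated macrophage-like cells they were 1188 and 2340 CPM, against 134 and 135 CPM in microglia-like cells. In choroid plexus or ependymal-like cells they were 168649 and 217707 CPM, against 61.8 and 47.3 CPM in microglia-like cells.

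Of the 11 genes higher in microglia-like cells, 7 were at least 1.5-fold higher in endothelial-like cells, with log2 ratios from 0.35 to 1.24. In border-associated macrophage-like cells 10 of 11 were (0.58 to 1.28), and in choroid plexus or ependymal-like cells 11 of 11 (0.70 to 1.28). Over all ribosomal protein genes measured in a class, 7 of 77 were higher and 2 lower in endothelial-like cells, against 19.6% and 15.5% of all genes measured there. In border-associated macrophage-like cells 12 of 76 were higher and 0 lower, against 30.2% and 10.0%. The median log2 ratio in that class was 0.13 over these 76 genes and 0.31 over all genes measured there. In choroid plexus or ependymal-like cells 16 of 74 were higher and 0 lower, against 14.5% and 1.90%. The lowest of the 11 genes in endothelial-like cells was Rpl38, with a log2 ratio of 0.35 (0.23 to 0.47). Rpl10 was below 0 in all 3 classes, with log2 ratios of -0.53, -0.39 and -0.54 in endothelial-like, border-associated macrophage-like and choroid plexus or ependymal-like cells.

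**Figure D5:**
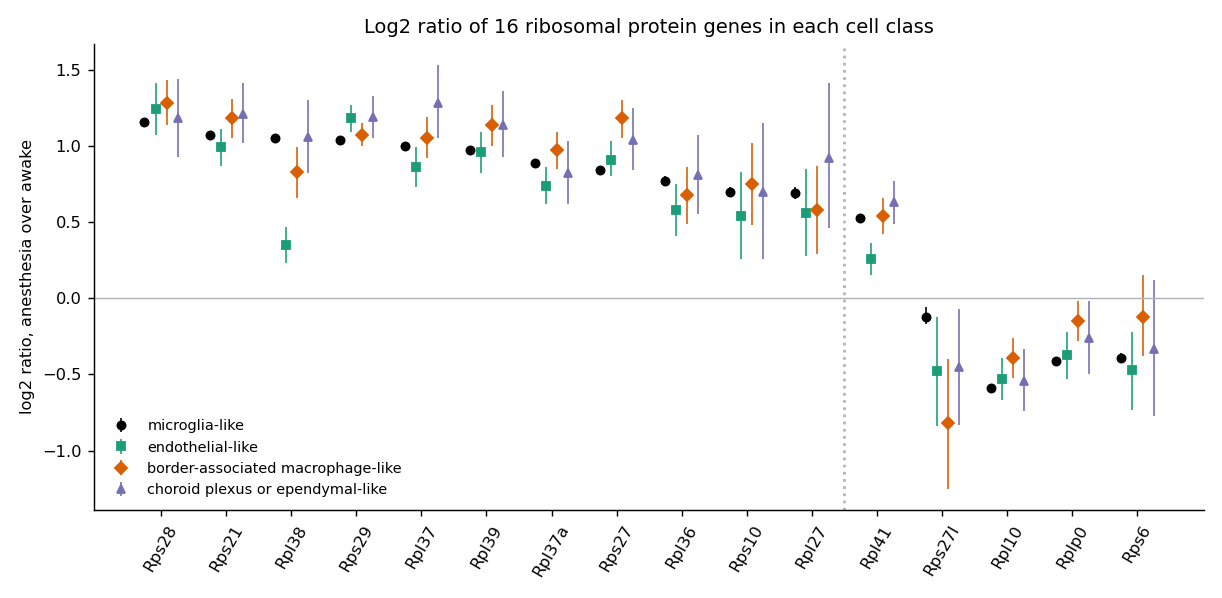
Log2 ratio of anesthesia over awake by cell class, with 95% intervals that cover counting error only, for the 11 genes higher in microglia-like cells (left of the dotted line) and for Rpl41, Rps27l, Rpl10, Rplp0 and Rps6 (right of it). The 11 genes lie above 0 in each class, from 0.35 for Rpl38 in endothelial-like cells to 1.28 in border-associated macrophage-like and in choroid plexus or ependymal-like cells.

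Set against microglia-like cells of the same library, most ribosomal protein genes had a like level in the other classes. In endothelial-like cells the median log2 ratio over microglia-like cells was 0.10 in the anesthesia and 0.19 in the awake library over 79 genes, with 4 and 8 genes at least 1.5-fold higher and 0 lower in both. Of all genes counted there, 25.0% and 35.7% were higher, and 19.8% and 19.4% lower. In border-associated macrophage-like cells the medians were -0.04 and -0.14, with 0 and 1 genes higher (6.14% and 12.8% of all genes) and 0 lower (0.731% and 17.7% of all genes). In choroid plexus or ependymal-like cells they were -0.23 and -0.33 over 78 genes, with 2 higher in each library (27.6% and 32.7% of all genes) and 1 and 6 lower (34.4% and 32.4%). The abundant markers of this class lower the CPM of its other genes. Their part in these ratios, and in that of Rpl12 below, was not tested.

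A few genes stood apart from the rest by class in both libraries. In endothelial-like cells Rpl38 was above its microglial level by log2 0.84 in the anesthesia library (1724 CPM) and 1.53 in the awake library (1351 CPM). Rps27l was above it by 0.73 and 1.10, and Rpl41 by 0.60 and 0.87. Rps4l was above it by 0.69 (0.26 to 1.08) and 1.05 (0.73 to 1.36), from only 52 and 86 UMIs. In choroid plexus or ependymal-like cells Rps27l was above its microglial level by log2 1.48 in the anesthesia (242 CPM) and 1.82 in the awake library (332 CPM), and Rpl41 by 0.97 and 0.87. Rpl12, a protein near the base of the stalk, had a log2 ratio to microglia-like cells of -0.62 in the anesthesia library (524 CPM) and -0.78 in the awake library (528 CPM). Rps27l and Rpl41 were thus above their microglial level in both classes and both libraries, whereas Rps27 itself was not among the genes past 1.5-fold in both libraries.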

How the data were processed

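Per the submitters' processing notes, bcl2fastq and Cell Ranger 3.1.0 were used with GRCm38, and per the file headers the matrices came from Cell Ranger 4.0.0. The deposited values are whole-number UMI counts per gene and barcode, with at least 501 UMIs per barcode. All 55450 gene identifiers matched GENCODE M21. Cells needed 500 genes, 1000 UMIs and a mitochondrial share of up to 10%. They were clustered with scanpy 1.11.5 and leidenalg 0.10.2 (2000 variable genes without ribosomal protein genes, 30 components, 15 neighbours, resolution 0.6). Clusters were named from 10 markers for each of 16 classes. Another class needed 3 markers among the 10 leading genes, and microglia-like clusters 7 of 10 markers in 25% of cells and at most 1 leading marker of another class. A cluster whose median UMI count was under 1/3 of its library's, with no marker of its class among its leading genes, stayed unnamed. Transcript length is that of the longest principal (APPRIS) transcript, or of the longest where none is marked. Counts were summed per class and library and scaled to CPM. Ratios have exact conditional binomial (Clopper-Pearson) 95% intervals. A gene was measured with 200 UMIs over both libraries and called at 1.5-fold. Named were members past 1.5-fold, the 5 highest and 5 lowest ratios per subunit, the 5 with most and 5 with fewest UMIs, those not measured, those with a copy or namesake, and up to 4 genes of each list with the largest ratios. The stalk and 5S proteins, Rpl12, Rpl41, the length classes, coding length and the genes outside the symbol rule were chosen after values were seen. The members and lists were chosen with earlier results of these data known. A few genes within these counts are not reported here by name. The calculation was tested on simulated data.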

Additional observations from a re-analysis of the deposited data

How the results depend on the processing

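No paired analysis was possible because each group has 1 library. The 11 higher genes were past 1.5-fold in all 10 settings tried for single genes (110 of 110 values, log2 0.69 to 1.26). This count is no separate check, since the genes were picked by the same ratio. Settings that change only the UMI limit repeat that ratio, and centring or another total shifts all ratios alike. With a length and GC trend removed, the median over the genes was 0.14, 18 genes were higher and 0 lower. Within clusters, 17 were higher and 0 lower. The count of lower genes was also 0 when centred on the median gene, with a total without mitochondrial, ribosomal protein, Gm42418 and Malat1 UMIs, and without cells over 10000 UMIs, and it was 1 at a mitochondrial share of at most 5%. The share of all measured genes past 1.5-fold was not calculated in these settings, so these counts stand without a background. The cause was not tested. The share in the anesthesia library was 7.76% as a mean over cells, 7.74% at a mitochondrial share of at most 5%, 7.94% without cells over 10000 UMIs and 7.77% without the highest Scrublet scores. The share in the awake library was 6.93% over cells of any class, 6.72% as a mean over cells, 6.87% at a mitochondrial share of at most 5% and 6.90% without the highest Scrublet scores. Without cells over 10000 UMIs, border-associated macrophage-like cells (8.10% and 7.61%) were above microglia-like cells (7.94% and 6.91%), where they were below them over all cells. The rank correlation with length was -0.39, and -0.75 with coding length, a measure chosen after seeing the data. Depth limits Rpl3l, Rpl10l and Rpl32l, and a pair of libraries cannot show how far such values vary between mice.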
